A study of Homo sapiens with 2 samples.

Results

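The genes described here belong to the epithelial-mesenchymal transition (EMT) and were measured in KYSE170-luc, a human esophageal squamous carcinoma line that carries luciferase, per the labels. The set has 10 genes: the transcription factors SNAI1, SNAI2, TWIST1, ZEB1 and ZEB2, the mesenchymal markers CDH2, VIM and SPARC, and the epithelial splicing regulators ESRP1 and ESRP2. A probe set counted when the platform annotation paired it with exactly 1 gene and that gene was in the set. This gave 20 probe sets of 9 genes, out of 41091 probe sets and 19775 genes on the array. The probe set listed for ESRP2 was paired with a microRNA gene as well, so no level is given for ESRP2. One culture had been transfected with a SOX17 expression plasmid (SOX17 array) and 1 with the empty vector (EV array), and RNA was taken at 12 h from both. Each group had 1 array, so every difference below is between 2 arrays. A test across samples could not be made, no p-value is given, and precision is limited by having 2 arrays.

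EMT is the loss of epithelial adhesion and polarity together with a gain of motile, mesenchymal traits, and it is studied in carcinomas as a step towards invasion. SNAI, ZEB and TWIST factors drive it: SNAI and ZEB proteins are zinc finger repressors that bind E-boxes in promoters such as that of the E-cadherin gene CDH1, and TWIST1 is a basic helix-loop-helix factor. ESRP1 and ESRP2 work on the opposite side, as RNA-binding proteins that keep exons of genes such as FGFR2, CD44 and ENAH in their epithelial splice forms. MicroRNAs of the miR-200 family and miR-205 hold ZEB1 and ZEB2 down in epithelial cells.

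Sequences of miR-200c-3p, miR-141-3p and miR-205-5p are shown because transcripts of their loci were measured on the arrays and because ZEB1 and ZEB2, which they target, are in the set. The mature sequences are those of RefSeq (GRCh38.p14), with the seed (bases 2 to 8) in capitals. The first pair come from 1 host transcript on chromosome 12, and miR-205-5p from chromosome 1.
hsa-miR-200c-3p: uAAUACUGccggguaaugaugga
hsa-miR-141-3p: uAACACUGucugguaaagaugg
hsa-miR-205-5p: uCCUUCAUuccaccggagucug
The 3 seeds differ, so no pair of these microRNAs shares a seed. The arrays do not report the mature forms.

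Promoter windows of 250 bases before to 50 after a gene's start were found in RefSeq (GRCh38.p14) for 5 of the 10 genes, CDH2, SPARC, VIM, ZEB1 and ZEB2, with 12 windows in all. They were searched on both strands for the E-box CAGGTG, which reads CACCTG on the opposite strand and is the SNAI and ZEB site. They were also searched for the core letters of SOX sites, ACAAT, which reads ATTGT on the opposite strand. No letters are shared between the motifs in these windows, since 0 windows hold the SOX letters. An E-box stood in 2 of the 12 windows, both of them of ZEB1, which has 7, and in 20.6% of all 35116 windows. The SOX letters stood in 0 of the 12 and in 27.4% of all windows. The ZEB1 window with the most E-boxes of its 7 is shown because ZEB1 alone of the 5 genes had windows with an E-box. A link between E-box factors and the level of ZEB1 was not tested. The CDH2 window is shown because CDH2 is the mesenchymal marker with a measured ratio. Capitals mark E-boxes, of which ZEB1 has 3 here and CDH2 has 0. The ZEB1 window is chr10:31318966-31319265 on the plus strand, and the CDH2 window is chr18:28177081-28177380 on the minus strand.
ZEB1: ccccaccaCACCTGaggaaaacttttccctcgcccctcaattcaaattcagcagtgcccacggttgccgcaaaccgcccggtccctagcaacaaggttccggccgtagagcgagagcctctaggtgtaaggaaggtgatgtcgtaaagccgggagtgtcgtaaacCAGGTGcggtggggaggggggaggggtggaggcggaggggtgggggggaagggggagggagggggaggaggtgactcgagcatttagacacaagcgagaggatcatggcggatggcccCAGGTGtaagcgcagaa
CDH2: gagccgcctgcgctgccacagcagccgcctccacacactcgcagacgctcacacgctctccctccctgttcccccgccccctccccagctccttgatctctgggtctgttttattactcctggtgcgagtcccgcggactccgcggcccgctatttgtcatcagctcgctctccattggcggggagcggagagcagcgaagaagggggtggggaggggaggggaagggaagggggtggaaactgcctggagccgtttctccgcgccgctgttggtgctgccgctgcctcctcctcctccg
A match is a string of letters and was not tested for binding.

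The values are linear intensities. A probe set was counted as measured from a floor of 95 upwards, the 60th percentile of the pooled intensities. On the SOX17 array 40.4% of probe sets reached it, and on the EV array 39.6%. Ratios are log2 of SOX17 over EV, so a positive ratio means higher on the SOX17 array. The SD of 1 such ratio between probe sets of the same gene was 0.37, 0.29 and 0.23 in the lowest, middle and highest tertile of level; it leaves out the spread between cultures. SOX17 itself, the transfected gene, was below the floor on both arrays: its 2 probe sets read 83.8 and 6.5 on the SOX17 array, against 4.5 and 19.1 on the EV array. With a floor at the 50th percentile, 57.9, the first probe set would lie above it on the SOX17 array alone. At the floor used here the SOX17 values leave the labels unchecked. The poly-A controls, spiked into the RNA ahead of labelling, had ratios above 0 on 24 of 24 probe sets, and their median on the log2 scale was 0.57. Their part in the ratios of the genes was not tested.

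The genes of the EMT set differed in whether they reached the floor, and 8 of 9 did so on both arrays or on neither. The share of all genes with equal status on both arrays was not counted, so the 8 of 9 is not read as a trait of the set. SNAI2, TWIST1, CDH2 and ESRP1 reached the floor on each array, on 6 probe sets. SNAI1, ZEB1, ZEB2 and SPARC were below the floor on both arrays on all 12 of their probe sets. VIM crossed the floor on 1 of its 2 probe sets and on the EV array alone. So 4 of 9 genes had a ratio, where 50.8% of all genes with a probe set did.

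No measured EMT gene reached a 1.5-fold difference. The count was 0 of 4 at 1.5-fold and 0 of 4 at 2-fold, against 6.96% and 0.747% of the 10042 measured genes. With only 4 genes and shares this small, a count of 0 is not read as a trait of the set. By direction, 3.77% of all measured genes were 1.5-fold or more higher on the SOX17 array and 3.19% lower, and at 2-fold 0.418% were higher and 0.329% lower. Of the 4 ratios 3 lay below 0 and 1 above, where 45.4% of measured genes lay below 0 and 54.6% above. The median of the 4 was -0.12, and that of all measured genes 0.03.

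**Figure D1:**
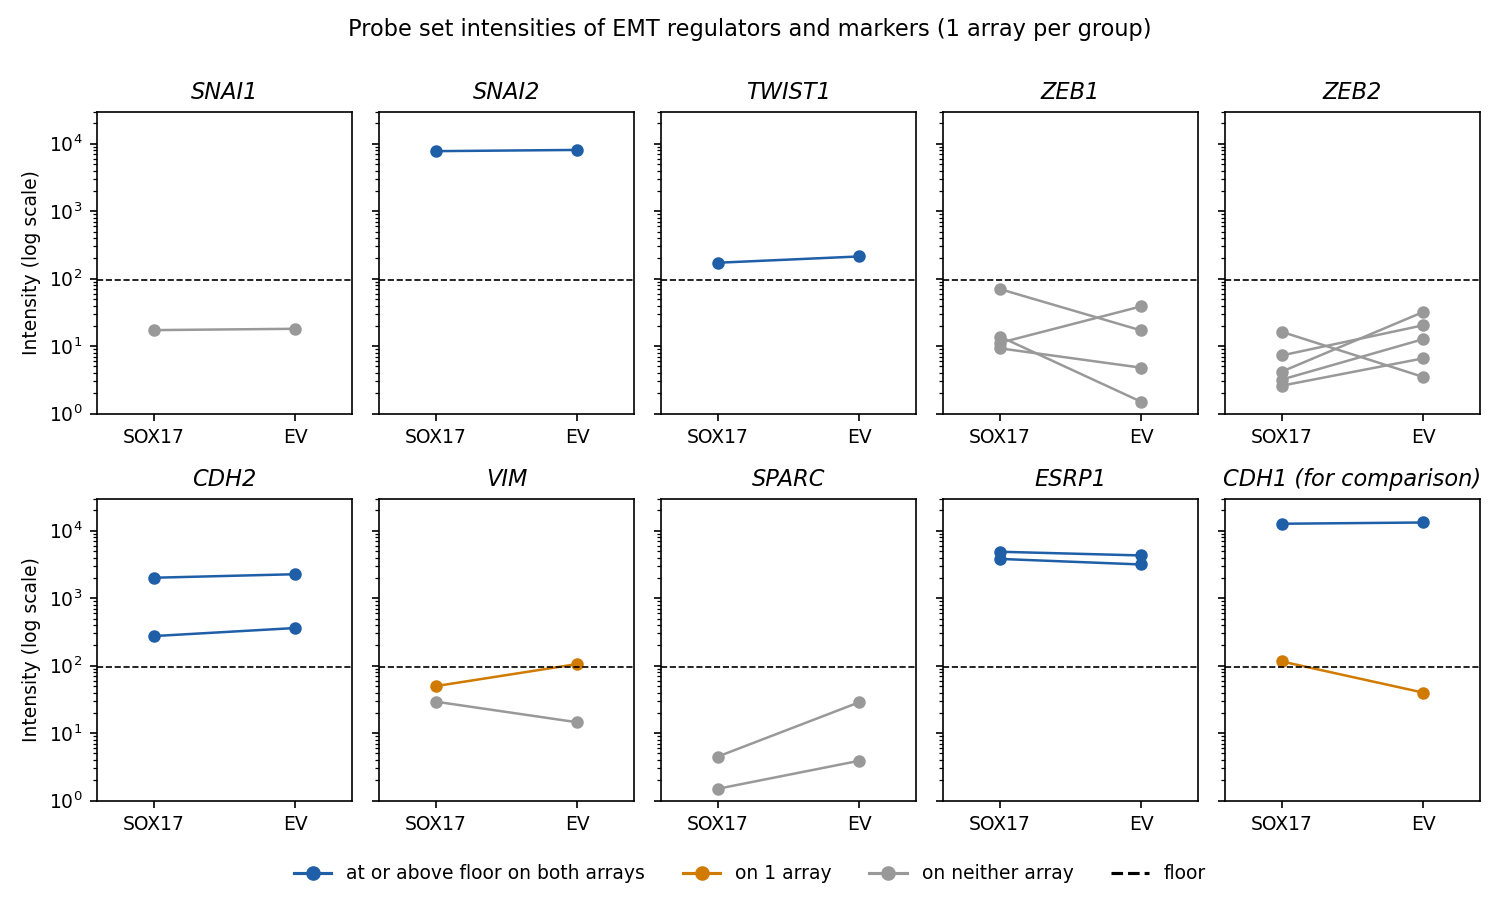
Intensity (log scale) of every probe set of the 9 EMT genes and of CDH1 on the SOX17 and the EV array, 1 panel per gene; each line joins the 2 values of 1 probe set, and the dashed line is the floor of 95. Lines of SNAI2, TWIST1, CDH2 and ESRP1 run nearly flat above the floor, those of SNAI1, ZEB1, ZEB2 and SPARC stay below it, and 1 line of VIM and 1 of CDH1 cross it.

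Among the transcription factors, SNAI2 (Slug), a zinc finger repressor of CDH1 that basal keratinocytes also express, read 7756.5 on the SOX17 array and 8084.7 on the EV array. Its log2 ratio was -0.06, smaller than the SD of 0.23 for that level. SNAI2 thus gave a signal in these cells with and without the SOX17 plasmid, at intensities that differed by less than the error between probe sets. It has 1 probe set, so no second one checks it.

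SNAI1 (Snail), the paralog of SNAI2, read 17.3 on the SOX17 array and 18.1 on the EV array, both under the floor. Its single probe set therefore gives no fold. The 2 SNAI paralogs differed in whether they were measured, SNAI2 on both arrays and SNAI1 on neither, and each rests on 1 probe set.

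TWIST1 read 172.3 on the SOX17 array and 213.5 on the EV array. The log2 ratio was -0.31, within the SD of 0.37 for dim probe sets. TWIST1 had the lowest representative ratio of the 4 measured genes. With the floor at the 75th percentile, an intensity of 312, TWIST1 would not count as measured.

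ZEB1 had 4 probe sets and none reached the floor. The 4 ranged between 9.3 and 70.2 on the SOX17 array and between 1.5 and 38.9 on the EV array. Readings under the floor have no order, so no fold is given. The probe set with 70.2 on the SOX17 array read 17.1 on the EV array. At the lower floor of 57.9, the 50th percentile, it would lie above the floor on the SOX17 array alone.

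ZEB2 was under the floor on all 5 of its probe sets, between 2.6 and 16.3 on the SOX17 array and between 3.5 and 32.1 on the EV array. The ZEB paralogs together thus gave no measured value on either array. Absence of a signal above the floor does not show absence of the transcript, since detection calls were not used here.

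Transcripts tied to ZEB1 were looked up after the values had been seen. ZEB1-AS1, a long noncoding RNA that starts beside ZEB1 on the opposite strand, read 145.7 on the SOX17 array and 151.7 on the EV array (log2 ratio -0.06). It was above the floor on both arrays, while ZEB1 was not. The probe set paired with MIR205, the gene of the microRNA miR-205 shown above, read 321.2 on the SOX17 array and 228.7 on the EV array (log2 ratio 0.49). That of the host transcript MIR205HG read 235.7 on the SOX17 array and 217.6 on the EV array (0.12). At the level of both probe sets the SD of 1 ratio was 0.37. The MIR205 ratio of 0.49 lay outside 1 SD of 0 and the MIR205HG ratio of 0.12 inside. The difference between these ratios was not tested, and none is read. MIR200CHG, host of miR-200c and miR-141, read 223.6 on the SOX17 array and 123.9 on the EV array, a log2 ratio of 0.85 or 1.80-fold. Its probe set ends in _x_at, a suffix for sets that can bind other transcripts, and lies where the SD of a ratio is 0.37. For all measured genes the share that reached 1.5-fold in this direction was 3.77%. MIR34A, whose microRNA targets SNAI1, was under the floor on both arrays, at 16 on the SOX17 array and 36.8 on the EV array.

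Among the mesenchymal markers, N-cadherin (CDH2), the cadherin of mesenchymal and neural cells, was measured on both of its probe sets. One probe set read 2009 on the SOX17 array and 2265.5 on the EV array, a log2 ratio of -0.17 with an SD of 0.23. The other read 274.6 on the SOX17 array and 361.5 on the EV array, a log2 ratio of -0.40 with an SD of 0.37. Both ratios lay below 0, and they differed from each other by 0.22, less than either SD.

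E-cadherin (CDH1), the epithelial partner in the cadherin switch of EMT and not in the set, read 12679.3 on the SOX17 array and 13231.7 on the EV array, a log2 ratio of -0.06. The ratio of CDH2 minus that of CDH1 was -0.11, within the SD of 1 ratio. A second CDH1 probe set read 115.5 on the SOX17 array and 39.9 on the EV array, at least 1.22-fold higher against the floor. Transcripts of both cadherins were thus measured on both arrays, and neither cadherin's measured probe sets passed 1.5-fold.

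Vimentin (VIM), the intermediate filament protein of mesenchymal cells, read 49.8 on the SOX17 array and 105.7 on the EV array on 1 probe set. Against the floor it was at least 1.11-fold lower on the SOX17 array, a small bound from a value just above the floor. The other VIM probe set, which ends in _x_at, read 29.3 on the SOX17 array and 14.5 on the EV array, both under the floor. The 2 probe sets thus gave no common picture of VIM.

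SPARC, a matricellular glycoprotein of connective tissue and tumour stroma, was under the floor on both probe sets. One read 4.5 on the SOX17 array and 28.7 on the EV array, and the other 1.5 on the SOX17 array and 3.9 on the EV array. No fold is given for SPARC.

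ESRP1, the epithelial splicing regulator, was the measured gene with a ratio above 0. Its first probe set read 4877 on the SOX17 array and 4298 on the EV array, a log2 ratio of 0.18, and its second read 3818.8 on the SOX17 array and 3159.4 on the EV array, a log2 ratio of 0.27. Both were higher on the SOX17 array, by 1.13-fold and 1.21-fold, with an SD of 0.23 for 1 ratio at that level. The 2 ratios differed by 0.09. The first lay inside 1 SD of 0 and the second just outside.

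**Figure D2:**
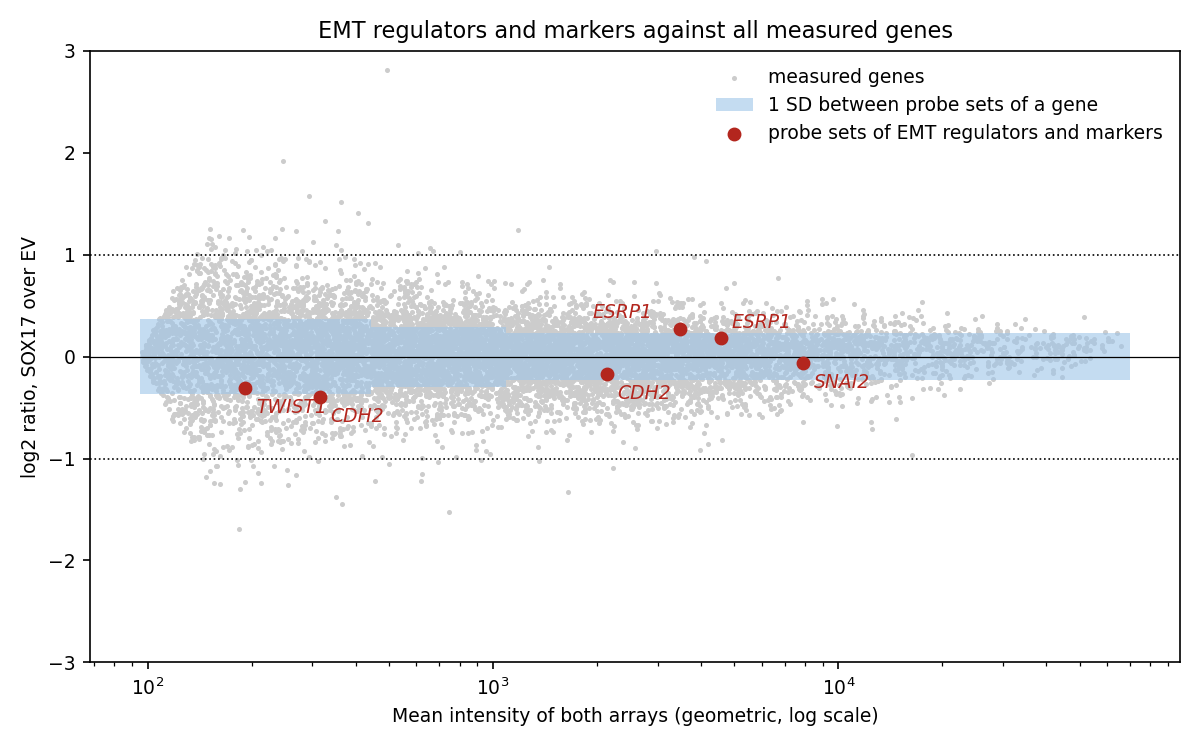
Log2 ratio of SOX17 over EV against the geometric mean intensity of both arrays (log scale) for 10042 measured genes (grey, 1 probe set each) and the 6 measured probe sets of the EMT set (red); the blue band is 1 SD of a ratio between probe sets of a gene in each tertile of level, and dotted lines mark 2-fold. The red points lie between -0.40 and 0.27, with 1 of CDH2 and 1 of ESRP1 just outside the band.

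The cells were checked against markers of other cell types, which also bears on the markers VIM, SPARC and CDH2. Of 9 squamous epithelium markers with a probe set 8 were measured, among them KRT14 (1814.3 on the SOX17 array, 1509.7 on the EV array) and the desmosomal cadherin DSG3 (614.2 on the SOX17 array, 734.9 on the EV array, log2 ratio -0.26, with 0.0055 on its other probe set), and involucrin (IVL) was not. The median log2 ratio of the 8 was 0.12, and SOX2 (0.27) and TRIM29 (0.21) lay above 0, while a second probe set of TRIM29 lay at 0.87. Of 10 fibroblast markers 1 was measured, the collagen gene COL1A1, at 845.1 on the SOX17 array and 780.2 on the EV array (log2 ratio 0.12, and 0.70 on its other probe set), with COL1A2, COL3A1, DCN, LUM, PDGFRA, PDGFRB, THY1, FAP and COL6A3 under the floor. Of 7 leukocyte markers 1 was, CD79A, at 96.9 on the SOX17 array and 112 on the EV array, and PTPRC was under the floor. Of 7 endothelial markers 0 were. The brightest probe sets of the fibroblast list summed to 1146.2 on the SOX17 array and 1083.3 on the EV array, and those of the leukocyte list to 373.6 on the SOX17 array and 251.9 on the EV array. The endothelial list summed to 158.3 on the SOX17 array and 207.4 on the EV array, and the squamous list to 101406 on the SOX17 array and 95824.6 on the EV array. Most of the squamous sum came from SFN (52641.3 on the SOX17 array, 50352.6 on the EV array) and PERP (41187.8 on the SOX17 array, 38464.9 on the EV array). KRT5 read 273 on the SOX17 array and 247.5 on the EV array, and 3 of the 12 listed squamous markers were not analysed. The leukocyte and endothelial sums consist mostly of readings under the floor, which have no order, so no difference between the arrays is read from them. The part of other cell types in the ratios of the EMT genes was not tested. In the RNA of a culture, fewer cells of a type and less RNA per cell cannot be told apart.

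Other genes that drive EMT had a median log2 ratio of -0.23, against 0.03 for all measured genes. Of 16 with a probe set 10 were measured, 8 below 0 and 2 above. Past 1.5-fold were 1 lower and 0 higher. Over all measured genes 45.4% lay below 0, 3.19% were lower past 1.5-fold and 3.77% higher. ETS1, a transcription factor of invasive growth, read 1538 on the SOX17 array and 2359.7 on the EV array (-0.62), but its 3 probe sets ranged from -0.62 to 0.23. SOX9 lay at -0.48 (-0.12 on its other probe set), the forkhead genes FOXQ1 at -0.38 and FOXC2 at 0.51. With the mean over probe sets the list's median was -0.12.

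Transcription factors that hold the epithelial state had 5 measured genes above 0 and 5 below, with a median of -0.09. Of all measured genes 54.6% lay above 0. ELF3, an epithelial ETS factor, read 722.4 on the SOX17 array and 437.7 on the EV array (0.72), yet its 3 probe sets ranged from -0.71 to 0.72. GRHL3, which promotes epidermal differentiation, lay at -0.55, and FOXA1 at 0.29. OVOL1, a repressor of ZEB1, lay at -0.39 on 1 probe set and at 0.51 on the other. The sign of this list's median turned with the floor at the 75th percentile (0.02), with no floor (0.0034) and with the mean over probe sets (0.01).

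Epithelial adhesion and polarity genes that SNAI and ZEB factors repress were measured almost throughout, 28 of 30. The measured share of all genes was 50.8%. Of the 28 measured 17 lay below 0 and 11 above, with 1 past 1.5-fold in each direction, and the median was -0.06. That is 7.14% of the 28 past 1.5-fold, near the 6.96% of all measured genes, of which 45.4% lay below 0. LLGL2, a basolateral polarity gene, read 309.7 on the SOX17 array and 178.1 on the EV array (0.80), and CRB3, of the apical Crumbs complex, lay at 0.42. The tight junction gene CLDN3 read 121.8 on the SOX17 array and 189.3 on the EV array (-0.64), near the floor and on a probe set ending in _x_at, and the serine protease PRSS8 lay at -0.40.

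Mesenchymal and matrix genes outside the set were mostly under the floor: 10 of 34 were measured, where 50.8% of all genes were. Of the 10 measured 7 lay below 0 and 3 above, with a median of -0.17. Past 1.5-fold were 2 lower and 1 higher, where 3.19% of all measured genes were lower by that much, 3.77% higher, and 45.4% lay below 0. The calcium-binding protein gene S100A4 read 119.8 on the SOX17 array and 190.5 on the EV array (-0.67), and caldesmon (CALD1), an actin regulator, read 2799 on the SOX17 array and 4209.7 on the EV array (-0.59, with 3 probe sets from -0.59 to -0.24). The collagen crosslinker LOX read 472.2 on the SOX17 array and 301.1 on the EV array (0.65, and 0.43 on its other probe set). Fibronectin (FN1) lay at 0.33 on the brightest of 4 probe sets, which ranged from -0.05 to 0.62. CALD1 and LOX, named for their large ratios, kept 1 sign on every measured probe set, CALD1 lower and LOX higher. Of the 21 named list genes with several measured probe sets, 10 had ratios of both signs. The share over all genes was not counted, so the equal signs are not read as support. S100A4 rests on 1 measured probe set, which on the SOX17 array read near the floor.

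**Figure D3:**
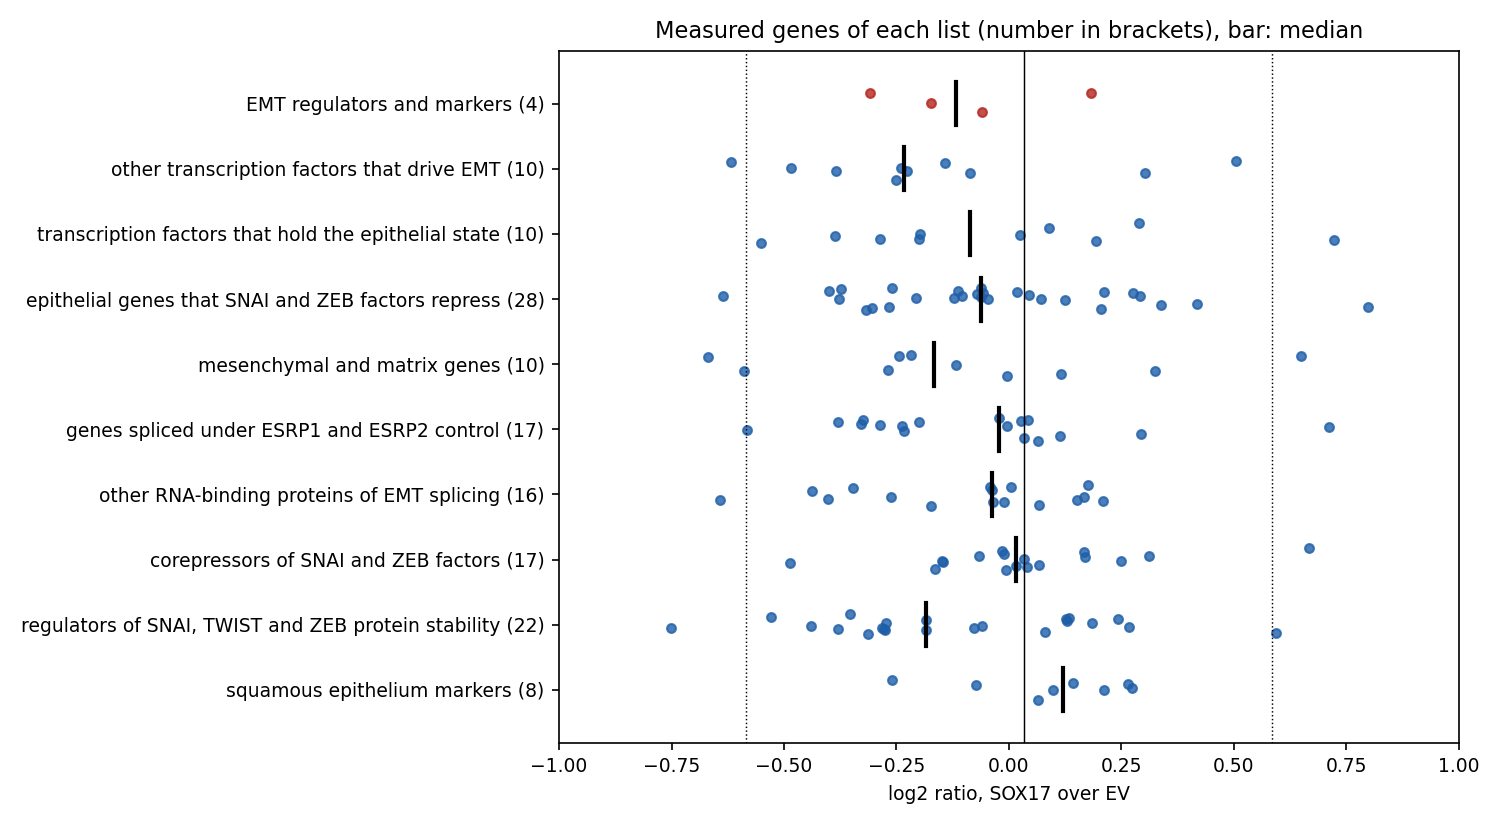
Log2 ratio of SOX17 over EV for each measured gene (1 point, 1 probe set) of the EMT set and of 9 lists around it, with the number measured in brackets and a thick bar at the median; the thin line is the median of all measured genes (0.03) and dotted lines mark 1.5-fold. The 4 EMT genes all lie inside the dotted lines, and each list has at most 3 genes outside them.

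Genes whose splicing ESRP1 and ESRP2 control had a median log2 ratio of -0.02, with 7 of 17 measured genes above 0 and 10 below. The shares over all measured genes were 54.6% above 0 and 45.4% below. ARFGAP2, a coatomer regulator, lay at 0.71 (567.9 on the SOX17 array, 346.7 on the EV array) and was the only 1 of the 17 past 1.5-fold (5.88%, near the 6.96% of all measured genes). RALGPS2 lay at -0.58 and the actin regulator ENAH at -0.33, but their 3 probe sets each reached 0.05 and 0.11. CLSTN1 lay at -0.38. These are levels of the genes and do not show which exons were kept.

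The other RNA-binding proteins of EMT splicing had 6 measured genes above 0 and 10 below (median -0.04). Over all measured genes 54.6% lay above 0 and 45.4% below. MBNL1 read 6310.7 on the SOX17 array and 9846.5 on the EV array (-0.64), and its 4 probe sets ranged from -0.64 to -0.03. QKI, which promotes mesenchymal splice forms, lay at -0.44, with 6 probe sets from -0.44 to -0.002. HNRNPF lay at -0.40 and MBNL2 at -0.35, with -0.92 on the other MBNL2 probe set. MBNL1, QKI and MBNL2, named for their large ratios, were below 0 on every measured probe set. The highest ratios of MBNL1 (-0.03) and QKI (-0.002) were close to 0.

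Corepressors that SNAI and ZEB factors recruit had a median of 0.02, with 9 measured genes above 0 and 8 below. For all measured genes the share above 0 was 54.6%. The histone methyltransferase gene SUV39H1 read 430.2 on the SOX17 array and 270.9 on the EV array (0.67), HDAC1 lay at 0.31, the ZEB partner CTBP1 at 0.25 and the Polycomb subunit SUZ12 at -0.49. When sets with names ending in _x_at or _s_at were left out, this median was -0.11, and with the floor at the 75th percentile it was -0.0057.

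Genes that control the stability of the SNAI, TWIST and ZEB proteins had a median of -0.18, with 14 of 22 measured genes below 0 and 1 gene past 1.5-fold in each direction. The share past 1.5-fold was 9.09%, against 6.96% of all measured genes, of which 45.4% lay below 0. FBXW7, a ubiquitin ligase subunit, read 652.9 on the SOX17 array and 1099.5 on the EV array (-0.75), but its 3 probe sets ranged from -0.75 to 0.03. BTRC, the ligase subunit that marks SNAI1 for breakdown, lay at 0.59 and its 3 probe sets ranged from -0.37 to 0.86. MDM2, a ligase known for p53, lay at -0.53 (4 probe sets, -0.62 to 0.41), and the kinase LATS2 at -0.44 and -0.43 on its 2 probe sets. LATS2 was the 1 of these 4 genes whose probe sets all had 1 sign.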

How the data were processed

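RNA from 1 SOX17 and 1 EV culture was measured on 1 Affymetrix array each. The deposited table holds linear intensities. Per the submitters' processing notes the authors used GCOS; the sources used here do not state its algorithm or settings, and no detection calls were used. The 2% trimmed mean was 500.1 on both arrays, so the values, scaled before deposit, were used as deposited. Of 54675 probe sets, 62 controls were left out, and 41091 were paired with 1 gene by GEO's platform annotation, 1801 with several and 11721 with none.

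Among the probe sets of a gene that reached the floor on each array, the one with the highest mean log2 intensity stood for the gene. A gene above the floor on 1 array got a bound against the floor. The SD of 1 ratio pooled the deviations from the gene's mean over the 4574 genes that had more than 1 measured probe set. The genes, the 12 other lists and all rules were chosen with earlier results of these data known. Named were all genes of the set, SOX17, CDH1 and up to 4 measured genes of each list with the largest absolute ratio. COL1A2 and the other markers below the floor, SFN, PERP and KRT5, and the noncoding genes were added after their values were seen. Of 214 distinct listed genes, 13 were not analysed here. Alternatives were median centring, quantile normalization, loess (span 0.4), a floor at percentile 50 or 75 and no floor, averaging a gene's measured probe sets, leaving out sets with names ending in _x_at or _s_at, and adding 16 before the log. Python 3.11.15, numpy 2.4.6, pandas 2.3.3 and statsmodels 0.14.6 were used, and the steps were tested on simulated data.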

Additional observations from a re-analysis of the deposited data

Results flagged for a closer look

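Signals outside the comparison were seen in 2 places. The probe set paired with both ESRP2 and the microRNA gene MIR6773 read 2594.7 on the SOX17 array and 2214.7 on the EV array, above the floor on both, with a log2 ratio of 0.23, and it is given to neither gene. The poly-A control probe sets had a median log2 ratio of 0.57, with a range of 0.23 to 1.02.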

How the results depend on the processing

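No paired analysis was possible because each group had 1 array. All settings were planned, and none of the 43 recomputed ratios of CDH2, TWIST1, SNAI2, ESRP1 and CDH1 changed sign or moved by more than the SD of a ratio at its level: CDH2 ranged from -0.29 to -0.15, TWIST1 from -0.32 to -0.29, SNAI2 from -0.09 to -0.06 and ESRP1 from 0.17 to 0.27. Many of the 43 could not move, so they are no check. A new floor keeps the ratio of a gene's brightest probe set while that set is measured. Averaging changes nothing for a gene with 1 measured probe set, nor does leaving sets out where the brightest set stays in. TWIST1 had no ratio with the floor at the 75th percentile, and CDH1 none when sets with names ending in _x_at or _s_at were left out. The counts depended most on the floor. Genes at least 1.5-fold higher numbered 379, against 671 with the floor at the 50th percentile, 108 at the 75th and 4238 with none. Genes at least 1.5-fold lower numbered 320, against 477 with the floor at the 50th percentile, 135 at the 75th and 2880 with none. At 2-fold, 42 genes were higher, against 125, 7 and 2811 with those 3 floors and 27 after adding 16 before the log, and 33 were lower, against 82, 9 and 1874. With no floor 9 genes of the set had a ratio instead of 4, and 4 of them passed both 1.5-fold and 2-fold. These were ZEB1, ZEB2, SPARC and VIM, each with at least 1 of the 2 readings under the floor. Of 81 recomputed list medians 5 had the other sign, 3 of the epithelial factors and 2 of the corepressors, and 9 moved beyond the SD of a ratio divided by the square root of the number of genes, and the cause was not tested. They were the other EMT factors (-0.13 with no floor, -0.12 with the mean over probe sets), the epithelial factors (0.024 with the floor at the 75th percentile, 0.012 with the mean over probe sets), the mesenchymal genes (-0.031 with the floor at the 50th percentile), the ESRP-spliced genes (-0.11 with each other floor and with none) and the corepressors (-0.11 when sets with names ending in _x_at or _s_at were left out).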
